A study of Mus musculus with 4 samples.

Results

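Neurotrophic factors and their receptors were examined in FAPs (fibro-adipogenic progenitors), the stromal progenitors of skeletal muscle, sorted by surface DPPIV, the product of Dpp4. The genes were chosen by symbol: the ligand genes Bdnf, Ntf3 and Gdnf, the neurotrophin receptor genes Ngfr, Ntrk2 and Ntrk3, and the GDNF family receptor genes Gfra1, Gfra2 and Ret. All 9 are among the 24421 gene symbols of the count table. Bulk RNA was sequenced from DPPIV- FAPs and DPPIV+ FAPs (PI- CD31- CD45- Sca1+ cells) of the same 2 mice, giving 4 libraries and n = 2 mice per population. Both wild-type mice had a CSF1R inhibitor, which depletes macrophages, for 3 weeks, and then chow without it for 3 days. All libraries share this treatment, and no library of untreated mice was analysed here. The labels name the tibialis anterior as the tissue, and their protocol describes muscle of both hindlimbs. Mouse 1 has the lower number in the labels, and where a population has a pair of values mouse 1 comes first and mouse 2 second. The mice were adult.

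Neurotrophins are secreted dimers that act through TRK receptor tyrosine kinases. BDNF binds TRKB, the product of Ntrk2, and neurotrophin-3, the product of Ntf3, binds mainly TRKC, the product of Ntrk3. The receptor encoded by Ngfr binds all neurotrophins with lower affinity and can pair with sortilin family proteins to bind their uncleaved precursors. GDNF is a distant relative of TGF-beta that binds the membrane-anchored coreceptor encoded by Gfra1, while neurturin prefers that of Gfra2, and either complex then engages the receptor tyrosine kinase RET. In muscle, these ligands are best known as factors that support motor and proprioceptive neurons.

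The libraries held between 18240110 and 20879405 counted reads, and a count of 0 allows up to 3 reads, or 0.143 to 0.166 CPM, the field's depth-scaled read count, here on library sizes scaled by edgeR's TMM method. This limit covers counting error only. Dpp4 had 89.6 and 39.6 CPM in DPPIV- FAPs, and 727 and 574 CPM in DPPIV+ FAPs. The log2 fold change of Dpp4 was 3.41, with an adjusted p of 8.75e-16 in DESeq2. With robust moderation in edgeR its adjusted p was 0.178, and under every other setting that gave a test it was below 0.05. Both libraries of mouse 1 held reads of Xist, with 153 and 166 against 1 and 3 in mouse 2, so each result is given per mouse. The paper used mice of both sexes, and an effect of sex cannot be told apart from other differences between these 2 mice. The 11588 genes that reached 2 CPM in 2 or more libraries were tested for a difference between the populations with mouse in the model.

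The promoters of the genes that were lower in DPPIV+ FAPs are shown where the RefSeq table on GRCm38.p6 lists a start, as the 250 bases before it. Capitals mark the GC box GGGCGG on either strand, which 32.7% of 32851 promoter windows of this length hold. Ntf3 has 2 listed starts, and the counts do not tell which was used.
Ntf3 start 1, chr6:126166745-126166994, minus strand: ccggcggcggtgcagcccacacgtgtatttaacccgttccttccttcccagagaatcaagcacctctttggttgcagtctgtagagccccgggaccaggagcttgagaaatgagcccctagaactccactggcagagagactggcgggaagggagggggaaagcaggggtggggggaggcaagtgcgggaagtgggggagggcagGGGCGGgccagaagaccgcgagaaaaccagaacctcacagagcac
Ntf3 start 2, chr6:126164961-126165210, minus strand: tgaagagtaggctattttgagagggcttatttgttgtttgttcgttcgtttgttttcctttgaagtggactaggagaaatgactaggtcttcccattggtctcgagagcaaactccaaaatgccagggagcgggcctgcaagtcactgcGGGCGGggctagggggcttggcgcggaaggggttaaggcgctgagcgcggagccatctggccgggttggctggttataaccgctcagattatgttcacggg
Ngfr, chr11:95587699-95587948, minus strand: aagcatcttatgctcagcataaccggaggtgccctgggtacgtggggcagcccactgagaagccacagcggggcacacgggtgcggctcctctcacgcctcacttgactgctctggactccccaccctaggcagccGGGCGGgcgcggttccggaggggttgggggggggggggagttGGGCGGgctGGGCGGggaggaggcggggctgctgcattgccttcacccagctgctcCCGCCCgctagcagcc
Ntrk2, chr13:58806319-58806568, plus strand: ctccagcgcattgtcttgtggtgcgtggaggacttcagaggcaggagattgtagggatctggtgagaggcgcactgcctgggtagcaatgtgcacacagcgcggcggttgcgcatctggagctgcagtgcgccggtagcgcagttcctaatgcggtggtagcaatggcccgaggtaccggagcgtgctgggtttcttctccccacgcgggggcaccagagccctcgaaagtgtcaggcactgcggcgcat
Gfra1, chr19:58455399-58455648, minus strand: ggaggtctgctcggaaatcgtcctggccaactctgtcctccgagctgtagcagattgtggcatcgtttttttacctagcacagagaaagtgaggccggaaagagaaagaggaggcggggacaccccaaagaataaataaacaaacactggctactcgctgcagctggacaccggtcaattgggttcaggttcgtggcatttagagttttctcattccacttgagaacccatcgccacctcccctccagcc
The Ngfr window held 4 GC boxes, which begin 114, 72, 63 and 16 bases before the start and do not overlap. Each Ntf3 window held 1, which begins 45 bases before the first start and 101 bases before the second. None was found in the windows of Ntrk2 and Gfra1. The TATA box TATAAA, searched on both strands like the motifs that follow, is held by 12.4% of all windows. The AP-1 site TGACTCA is held by 4.46%, and the cAMP response element TGACGTCA by 1.55%. None of these 3 motifs was found in the 5 windows shown. Windows of 6 of the 9 genes were listed. Ntrk3, Gfra2 and Ret had none in the table.

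Of the 9 genes, 7 reached the filter and 6 of these had an adjusted p below 0.05 in edgeR's quasi-likelihood test, adjusted by Benjamini-Hochberg over all genes tested. Ntrk3 was higher in DPPIV+ FAPs, and Ntf3, Ngfr, Ntrk2, Gfra1 and Gfra2 were lower, while Ret did not pass. Of all genes tested, 15.9% were higher and 17.2% lower by the same rule. DESeq2's Wald test called the same 6 genes in the same directions, against 7.97% of all genes higher and 8.59% lower. The CPM of the populations did not overlap for 6 of the 7 genes tested, against 56.3% of all genes tested. Bdnf and Gdnf did not reach 2 CPM in any library and were not tested. Ngfr reached 2 CPM in the DPPIV- libraries only, so it entered the test through the population where it is higher, and a filter of 2 CPM in 3 libraries left it out. These are bulk samples, in which fewer cells with a transcript and less of it per cell cannot be told apart.

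**Figure D1:**
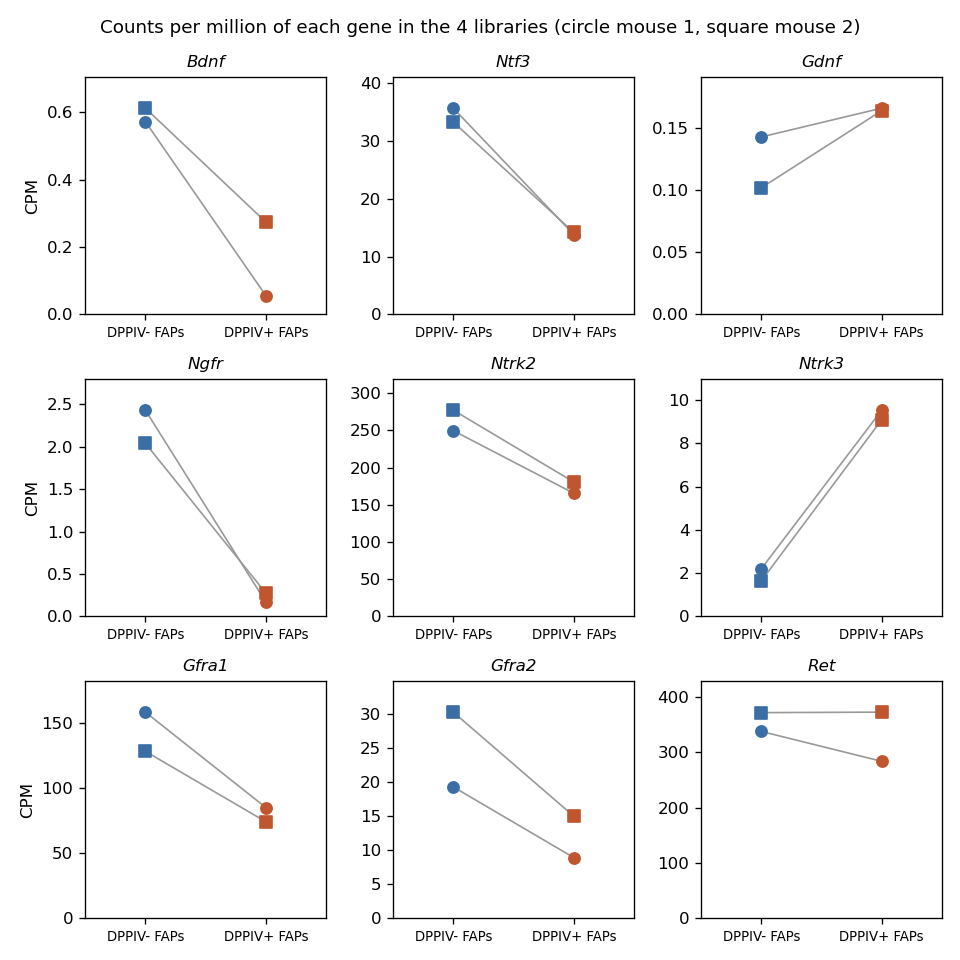
CPM of each of the 9 genes in DPPIV- FAPs (blue) and DPPIV+ FAPs (red), on linear axes from 0, with circles for mouse 1, squares for mouse 2 and lines joining the libraries of a mouse. Ntrk3 lies near 2 CPM in DPPIV- FAPs and above 9 CPM in DPPIV+ FAPs, while Ntf3 drops from above 33 to about 14 CPM in both mice.

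Among these 3 ligands, Ntf3 was the only one with more than a few reads. Ntf3 (ENSMUSG00000049107.13; GRCm38 chromosome 6, 126101412 to 126166910, minus strand) had 749 and 653 reads in DPPIV- FAPs, or 35.7 and 33.3 CPM. In DPPIV+ FAPs it had 249 and 259 reads, or 13.8 and 14.2 CPM. Both DPPIV- libraries lay above both DPPIV+ libraries, and the mice differed little within a population. The mean was 34.5 ± 1.70 CPM (SD, n = 2) without DPPIV and 13.99 ± 0.269 CPM with it, a 2.47-fold higher level in DPPIV- FAPs. The log2 fold change of Ntf3 was -1.30 (standard error 0.10, adjusted p = 3.44e-36 in edgeR and 5.87e-11 in DESeq2), with log2 ratios of -1.37 in mouse 1 and -1.23 in mouse 2.

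Bdnf and Gdnf were near the limit of detection. Bdnf (ENSMUSG00000048482.14; chromosome 2, 109674700 to 109727007, plus strand) had 12 reads in DPPIV- FAPs of each mouse, and 1 and 5 reads in DPPIV+ FAPs. The ratio of DPPIV- to DPPIV+ CPM was 10.3 in mouse 1 (95% exact counting interval 1.53 to 441) and 2.24 in mouse 2 (0.733 to 8.10). Both ratios lie on the same side, but the interval of mouse 2 includes 1. Without the filter, the adjusted p of Bdnf was 0.155 in edgeR's quasi-likelihood test. Of its exon bases, 896 are shared with the antisense gene Gm45346. Gdnf (ENSMUSG00000022144.4; chromosome 15, 7810846 to 7837575, plus strand) had 3 and 2 reads in DPPIV- FAPs and 3 and 3 reads in DPPIV+ FAPs, which is at the limit in every library. A difference in Gdnf was not detectable at this depth.

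Ntrk3, which encodes the main receptor of neurotrophin-3, moved opposite to Ntf3. Ntrk3 (ENSMUSG00000059146.12; chromosome 7, 78175959 to 78738012, minus strand) had 46 and 32 reads in DPPIV- FAPs, or 2.19 and 1.63 CPM. In DPPIV+ FAPs it had 172 and 166 reads, or 9.53 and 9.09 CPM. The populations did not overlap, and the gap was several times the difference between mice. The mean rose from 1.91 ± 0.397 to 9.31 ± 0.314 CPM (SD, n = 2), a 4.87-fold increase. The log2 fold change of Ntrk3 was 2.28 (standard error 0.22, adjusted p = 3.10e-23 in edgeR and 1.16e-08 in DESeq2), with 2.12 in mouse 1 and 2.47 in mouse 2. A stretch of 72 bases in its transcripts is 97.2% identical to Marc2.

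Ntrk2, which encodes the BDNF receptor, was lower in DPPIV+ FAPs. Ntrk2 (ENSMUSG00000055254.15; chromosome 13, 58806569 to 59133970, plus strand) had 5237 and 5436 reads in DPPIV- FAPs, or 249.7 and 277 CPM. DPPIV+ FAPs had 2985 and 3298 reads, or 165 and 181 CPM. Within each population mouse 2 was the higher of the pair, and the populations did not overlap. The mean fell from 263 ± 19.5 to 173 ± 10.7 CPM (SD, n = 2), a 1.52-fold higher level in DPPIV- FAPs. The log2 fold change of Ntrk2 was -0.61 (standard error 0.07, adjusted p = 3.78e-18 in edgeR and 1.06e-08 in DESeq2), with -0.59 in mouse 1 and -0.62 in mouse 2. Ntrk2 and Ntrk3 both encode full-length kinases and truncated forms that lack the kinase, which counts per gene do not separate.

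Ngfr showed the largest fold difference of the 7 genes tested, from few reads. Ngfr (ENSMUSG00000000120.6; chromosome 11, 95568818 to 95587735, minus strand) had 51 and 40 reads in DPPIV- FAPs, or 2.43 and 2.04 CPM. DPPIV+ FAPs had 3 and 5 reads, or 0.166 and 0.274 CPM. Ngfr thus passed the filter through the DPPIV- libraries only, the population where it is higher. Both DPPIV+ libraries were close to the limit of detection, and the means were 2.24 ± 0.277 and 0.220 ± 0.0760 CPM (SD, n = 2). The ratio of DPPIV- to DPPIV+ CPM was 14.6 in mouse 1 (95% exact counting interval 4.73 to 73.2) and 7.45 in mouse 2 (2.94 to 24.2). The log2 fold change of Ngfr was -3.30 (standard error 0.43, adjusted p = 2.95e-13 in edgeR and 0.000953 in DESeq2), with -3.82 in mouse 1 and -2.87 in mouse 2.

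Ngfr is also a gene of Schwann cells, the glia of peripheral nerve, so markers of that lineage were read beside it. Of all genes tested, 15.9% were higher and 17.2% lower in edgeR. Of 11 Schwann cell markers, 7 were tested, of which 2 were higher and 2 lower in DPPIV+ FAPs. Their summed level was 36.7 to 41.1 CPM in DPPIV- FAPs and 37.8 to 42.0 CPM in DPPIV+ FAPs, and none was at 0 in all libraries. Sox10, which defines the lineage, had 30 and 7 reads in DPPIV- FAPs and 8 and 15 reads in DPPIV+ FAPs. From these few reads Sox10 moved in opposite directions in the 2 mice, and it did not reach the filter. The Schwann cell markers that fell were Cdh19, with a log2 fold change of -1.90, and S100b, with -1.25. Erbb3 rose by 2.68 and Mbp by 0.63, the last not called by DESeq2 (adjusted p = 0.101). Erbb3 reached 2 CPM in the DPPIV+ libraries only, so it entered the test through the population where it is higher. Foxd3 was the lowest of the list, and the part of Schwann cells in the Ngfr difference was not tested.

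**Figure D2:**
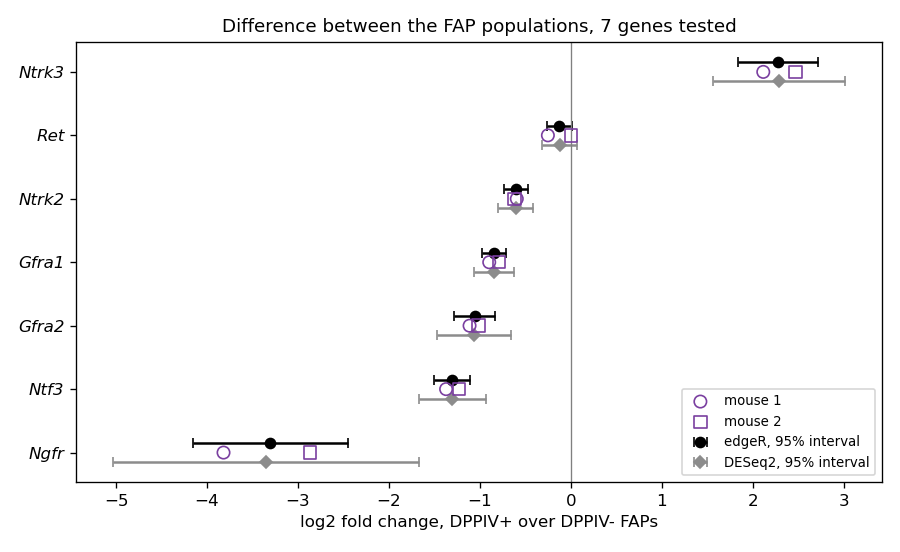
Log2 fold change of DPPIV+ over DPPIV- FAPs for the 7 genes tested, with 95% intervals from edgeR (black) and DESeq2 (grey) and the log2 ratio of each mouse (open symbols). Ntrk3 lies to the right of 0 and Ntf3, Ngfr, Ntrk2, Gfra1 and Gfra2 to the left in both mice, while the intervals of Ret include 0.

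Both GDNF family coreceptors were lower in DPPIV+ FAPs. Gfra1 (ENSMUSG00000025089.15; chromosome 19, 58235604 to 58455909, minus strand) had 3325 and 2517 reads in DPPIV- FAPs, or 159 and 128 CPM. DPPIV+ FAPs had 1536 and 1356 reads, or 85.1 and 74.3 CPM. Mouse 1 was higher in both populations, and the lowest DPPIV- library still lay above the highest DPPIV+ library. The mean fell from 143 ± 21.3 to 79.7 ± 7.70 CPM (SD, n = 2), and the log2 fold change of Gfra1 was -0.84 (standard error 0.07, adjusted p = 2.79e-35 in edgeR and 1.77e-12 in DESeq2). The log2 ratio was -0.90 in mouse 1 and -0.79 in mouse 2. Of the exon bases of Gfra1, 416 are shared with the antisense gene Gm16277.

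Gfra2 (ENSMUSG00000022103.10; chromosome 14, 70890120 to 70979838, plus strand) had 405 and 594 reads in DPPIV- FAPs, or 19.3 and 30.3 CPM. DPPIV+ FAPs had 161 and 274 reads, or 8.93 and 15.005 CPM. Here mouse 2 was the higher in both populations, so the within-mouse ratios were closer to each other than the levels. The log2 ratio was -1.11 in mouse 1 and -1.01 in mouse 2, and the log2 fold change of Gfra2 was -1.06 (standard error 0.12, adjusted p = 9.03e-19 in edgeR and 4.29e-06 in DESeq2). Without mouse in edgeR's model the adjusted p of Gfra2 was 0.0368. In that unpaired fit the call was lost without the DPPIV- library of mouse 2 (log2 fold change -0.69, adjusted p = 0.0538) and without the DPPIV+ library of mouse 1 (log2 fold change -0.72, adjusted p = 0.142).

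Ret, the signalling receptor of the family, was abundant in both populations and showed no difference that passed the test. Ret (ENSMUSG00000030110.13; chromosome 6, 118151745 to 118197718, minus strand) had 7080 and 7282 reads in DPPIV- FAPs, or 338 and 371 CPM. DPPIV+ FAPs had 5115 and 6800 reads, or 284 and 372 CPM. The DPPIV+ library of mouse 1 was the lowest, and the populations overlapped. Ret ranked 376th of the 24421 symbols by mean CPM over the 4 libraries. Its log2 ratio was -0.25 in mouse 1 and 0.0035 in mouse 2, and its log2 fold change was -0.12 (95% interval -0.26 to 0.01, adjusted p = 0.161 in edgeR and 0.620 in DESeq2). Without the DPPIV+ library of mouse 1, in the fit without mouse, the log2 fold change of Ret was 0.070.

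Levels of different genes were compared per kilobase of annotated exon (RPKM over the union of exons in GENCODE M21). In DPPIV- FAPs the order was Ret with 52.4 ± 3.54 RPKM (SD, n = 2), Gfra1 with 26.2 ± 3.89, Ntf3 with 20.1 ± 0.990, Ntrk2 with 13.7 ± 1.01 and Gfra2 with 7.01 ± 2.196 RPKM. Ngfr followed with 0.649 ± 0.0803 RPKM, and Bdnf, Ntrk3 and Gdnf lay below 0.1 RPKM. In DPPIV+ FAPs it was Ret with 48.5 ± 9.29 RPKM, Gfra1 with 14.6 ± 1.41, Ntrk2 with 8.97 ± 0.555, Ntf3 with 8.16 ± 0.157 and Gfra2 with 3.38 ± 1.21 RPKM, and then Ntrk3 with 0.309 ± 0.0104 RPKM. Ret lay above 93.5% of the 11188 tested genes with a length, and Ntrk3 above 0.250%. With the length of the longest transcript in place of the union, Ntrk2 was 30.1 ± 2.23 and Ntf3 23.3 ± 1.14 RPKM in DPPIV- FAPs, so the order of that pair depends on the length used. By that measure Gfra1, with 30.9 ± 4.59 RPKM, and Ntrk2 did not differ beyond their spread. Bdnf and Gdnf, with 1 to 12 reads per library, have no reliable place in the order.

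**Figure D3:**
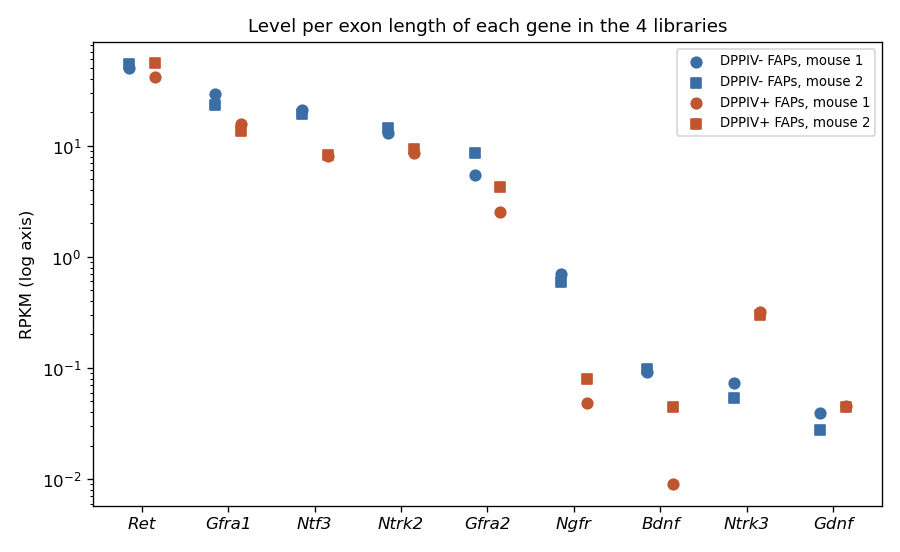
RPKM of each gene (log axis) in the 4 libraries, ordered by the mean in DPPIV- FAPs, with blue for DPPIV- and red for DPPIV+ FAPs, circles for mouse 1 and squares for mouse 2. Ret, Gfra1, Ntf3, Ntrk2 and Gfra2 lie above 1 RPKM in all libraries, and Ngfr, Bdnf, Ntrk3 and Gdnf below it.

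The remaining ligands and receptors of both families were read from the same fit. Among further ligands, Artn, which encodes the GDNF relative artemin, was lower in DPPIV+ FAPs, with 106 and 109 reads in DPPIV- FAPs and 33 and 29 reads in DPPIV+ FAPs (log2 fold change -1.63, SE 0.25, adjusted p = 1.30e-09 in edgeR and 0.00259 in DESeq2). It reached 2 CPM in the DPPIV- libraries only and was left out by the filter on 3 libraries. Ntf5, which encodes neurotrophin-4, had at most 2 reads in a library and Nrtn, which encodes neurturin, at most 9, while Pspn, which encodes persephin, had 0 in all. Gfra3, which encodes the coreceptor of artemin, had 4 and 1 reads in DPPIV- FAPs against 3 and 3.

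Of 15 further receptors, coreceptors and receptor-binding proteins, 11 were tested, of which 8 were lower and 1 higher in DPPIV+ FAPs, with a median log2 fold change of -0.69 against -0.0020 over all genes tested. DESeq2 called 4 of these lower and none higher. Over all genes tested, 17.2% were lower and 15.9% higher in edgeR, and 8.59% and 7.97% in DESeq2. Sorcs2, a sortilin family receptor that pairs with the Ngfr product, had 112 and 130.03 CPM in DPPIV- FAPs and 33.5 and 45.8 CPM in DPPIV+ FAPs, and the populations did not overlap (log2 fold change -1.62, SE 0.07, adjusted p = 1.74e-117 in edgeR and 1.76e-34 in DESeq2). Sorl1, of the same family, had 40.6 and 37.4 CPM against 15.5 and 15.6 CPM (log2 fold change -1.33). Sdc3, which encodes syndecan-3, a heparan sulphate proteoglycan that binds GDNF, had 103 and 134 CPM against 34.8 and 44.3 CPM (log2 fold change -1.59). Bex3, listed under its older symbol Ngfrap1, encodes a protein that binds the Ngfr product and had a log2 fold change of -0.76 (adjusted p = 2.2e-06 in edgeR and 0.0263 in DESeq2). That call was lost in the unpaired edgeR fit without the DPPIV+ library of mouse 2 (adjusted p = 0.0652).

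The other calls among these receptors were lost in DESeq2. Sort1, which encodes sortilin, had a log2 fold change of 0.30 (adjusted p = 0.000869 in edgeR and 0.236 in DESeq2). The log2 fold changes of Lingo1, Nradd, Maged1 and Ncam1 were -0.69, -0.72, -0.22 and -0.41, each past the threshold in edgeR only, with DESeq2 adjusted p of 0.416, 0.174, 0.0896 and 0.333. NCAM1 is an alternative signalling receptor for GDNF. Gfra4 had 58 and 39 reads against 33 and 42, and Kidins220 had 98.1 and 99.7 CPM against 96.2 and 107 CPM, with log2 fold changes of -0.20 (adjusted p = 0.651 in edgeR) and 0.04 (adjusted p = 0.721 in edgeR). Sorcs1 had at most 4 reads in a library, and Sorcs3 had 0 in all.

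**Figure D4:**
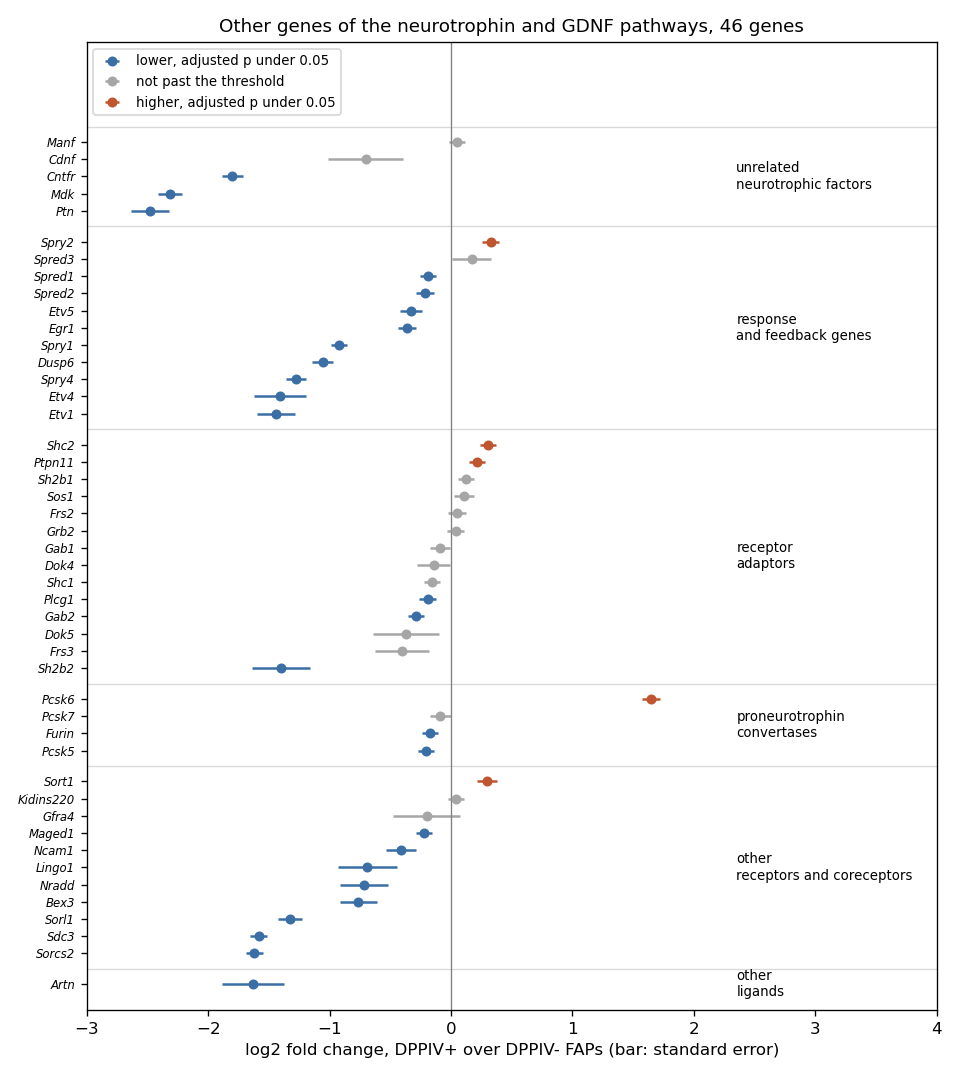
Log2 fold change (with its standard error) of DPPIV+ over DPPIV- FAPs for 46 other genes of the pathways that were tested, grouped by role, with blue for lower, red for higher and grey for genes past no threshold in edgeR. Pcsk6 at 1.64 stands to the right, and Ptn at -2.48 and Mdk at -2.31 to the left.

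Proneurotrophins are cut to their mature form by furin-like convertases. Of the 4 convertase genes, 1 was higher and 2 lower in edgeR, against 15.9% and 17.2% of all genes tested. Pcsk6, which encodes the convertase PACE4, had 872 and 694 CPM in DPPIV- FAPs and 2474 and 2390 CPM in DPPIV+ FAPs. Pcsk6 rose by 1.64 on the log2 scale (standard error 0.07, adjusted p = 2.42e-103 in edgeR and 4.11e-65 in DESeq2). Furin and Pcsk5, the lower genes, had log2 fold changes of -0.17 and -0.20 and did not pass in DESeq2 (adjusted p = 0.411 and 0.269).

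Among 17 genes of receptor adaptors, which couple active TRK and RET kinases to the RAS and phospholipase pathways, 14 were tested and 9 did not pass in edgeR. Sh2b2 fell, with a log2 fold change of -1.40 (adjusted p = 2.19e-08 in edgeR and 0.00447 in DESeq2), the only call of this list that DESeq2 shared. Shc2, Gab2 and Ptpn11 had log2 fold changes of 0.30, -0.29 and 0.22, with DESeq2 adjusted p of 0.102, 0.0776 and 0.172. The median of the list was -0.12, against -0.0020 over all genes tested, of which 33.0% passed in edgeR.

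Genes that receptor tyrosine kinase signalling commonly induces, several of which feed back on it, were mostly lower in DPPIV+ FAPs. Of 13 listed, 11 were tested, with a median log2 fold change of -0.37, against -0.0020 over all genes tested. In edgeR 9 were lower and 1 higher, against 17.2% and 15.9% of all genes tested. In DESeq2 6 were lower and 1 higher, against 8.59% and 7.97%. Etv1 and Etv4, transcription factors of the ETS family, had log2 fold changes of -1.45 (standard error 0.16, adjusted p = 3.85e-19 in edgeR) and -1.41 (standard error 0.21, adjusted p = 5.51e-10 in edgeR). Spry4, an inhibitor of the RAS pathway, had 54.1 and 62.9 CPM in DPPIV- FAPs and 22.5 and 25.8 CPM in DPPIV+ FAPs, lower in both mice (log2 fold change -1.28). Dusp6, a phosphatase of ERK kinases, had 43.4 and 53.7 CPM against 21.5 and 25.1 CPM (log2 fold change -1.06). Spry2 was the gene of the list called higher, with a log2 fold change of 0.33 (adjusted p = 6.08e-06 in edgeR and 0.0124 in DESeq2). These genes respond to many receptors, and their list was not tied to a ligand here.

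Markers of other cell types were read for all libraries. Over all genes tested, 15.9% were higher and 17.2% lower in edgeR, and 7.97% and 8.59% in DESeq2. All 6 FAP markers differed between the populations in edgeR and DESeq2, 4 lower and 2 higher in DPPIV+ FAPs. Ly6a, which encodes the sorting marker Sca1 and was the lowest of the list over the 4 libraries, had 978 ± 25.5 CPM (SD, n = 2) without DPPIV and 1461 ± 10.3 CPM with it, and Cd34 rose by 0.52 on the log2 scale. Pdgfra, the receptor gene that marks FAPs, had 1563 ± 127 CPM against 1198 ± 57.5 CPM. The log2 fold changes of the lower genes were -0.38 for Pdgfra, -0.40 for Col1a1, -0.28 for Dcn and -0.25 for Gsn, the last with the most counts. These 4 moved in the direction of Ntf3, Ngfr, Ntrk2, Gfra1 and Gfra2, and their part in those differences was not tested. Of 7 mural cell markers, 6 were lower in DPPIV+ FAPs in edgeR and 4 in DESeq2, and their sum was 151 to 152 CPM in DPPIV- FAPs and 55.5 to 70.5 CPM in DPPIV+ FAPs. The mural list was led by Cspg4, with Kcnj8 lowest, and none was at 0. Kcnj8 reached 2 CPM in the DPPIV- libraries only. The mural sum moved with Ntf3, Ngfr, Ntrk2, Gfra1 and Gfra2, and its part in their differences was not tested. Of 5 tenocyte markers, Fmod, Scx, Mkx and Tnmd were higher and Thbs4 lower in edgeR, the last not in DESeq2, with sums of 1794 to 2386 CPM against 1899 to 3760 CPM. The tenocyte sums of the populations overlapped, and Scx reached 2 CPM in the DPPIV+ libraries only. Fmod, Scx, Mkx and Tnmd moved in the direction of Ntrk3 in both mice, while Thbs4 was lower in mouse 1 only. The part of this list in the Ntrk3 difference was not tested. Of 6 macrophage and leukocyte markers, 4 were lower in edgeR and none in DESeq2, with sums of 188 to 318 CPM against 180.4 to 198 CPM. These sums overlapped, and the gap lay mainly in mouse 1, with 318 against 198 CPM, while mouse 2 had 188 against 180.4 CPM. Endothelial markers summed to 182 to 244 CPM against 458 to 502 CPM. Tek alone of that list was higher, with 186 and 149 CPM against 466 and 426 CPM, while Pecam1, Cdh5 and Kdr were lower in edgeR and not in DESeq2. Their log2 ratios in mouse 1 and mouse 2 were -0.80 and -2.5e-05 for Pecam1, -0.95 and 0.10 for Kdr, and -0.33 and -0.32 for Cdh5. For myofibres, the 5 tested markers had log2 fold changes of -0.0088 to 0.41, past no threshold in edgeR, and sums of 48.1 to 74.6 CPM against 53.7 to 75.7 CPM. Perineurial markers, of which Cldn1 was lower among 3 tested, had sums, mostly of Tjp1, of 122 to 124 CPM against 125 to 132 CPM. Cldn1 reached 2 CPM in the DPPIV- libraries only. Satellite cell markers summed to at most 2.10 CPM in a library and were not tested. Of 6 neuronal markers, Snap25 and Chat had 0 reads in all libraries, Tubb3 alone was tested and lower in edgeR only, and the sums, mostly of Tubb3, were 13.2 to 17.9 CPM against 11.3 to 13.5 CPM. Below the filter, Nefl had 0 and 0 reads in DPPIV- FAPs against 19 and 19, and Nefm 7 and 13 against 41 and 35, higher with DPPIV in both mice, while Prph had 22 and 37 against 14 and 9.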

How the data were processed

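Bulk RNA of DPPIV- and DPPIV+ FAPs from 2 mice was analysed in 4 libraries. Paired-end reads were demultiplexed by the authors with bcl2fastq 2.20, who aligned them to mm10 with STAR and tallied them with RnaReadCounter, and they deposited raw counts per gene symbol without normalization or filter. The annotation release and strand setting are not given in the sources used here. Labels and paper name different stranded library kits.

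From these counts, edgeR 4.0.16 (R 4.3.3, limma 3.58.1) was run with TMM scaling and a quasi-likelihood F test, two-sided, with mouse and cell type in the model. These terms follow the paper's methods, which used DESeq2's Wald test. The filter was 2 CPM or more in 2 or more libraries. The paper's wording, taken literally, asks for 3 of the 4 libraries, which was run as an alternative. The p-values were adjusted by Benjamini-Hochberg over all 11588. Standard errors are the size of the log2 fold change over the square root of F. The model leaves 1 residual degree of freedom and the prior degrees of freedom were infinite, so each gene takes the spread of its abundance trend and the p-values of abundant genes are very small. DESeq2 1.42.0, whose Wald test estimates dispersion gene by gene with shrinkage, is therefore given beside it. Log2 ratios per mouse used a prior count of 0.125, and the closest patterns a prior count of 2. The functions were tested on simulated data.

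Each animal number stands in the titles of 1 DPPIV- and 1 DPPIV+ library, which pairs them. Across genes, which are not replicates, the difference between the mice in one population correlated with that in the other (0.434). That the mice were separate animals comes from these numbers.

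The genes, lists and tests were chosen with earlier results of these data known. Named were all 9 genes, the further ligands and receptors listed, up to 4 called genes with the largest change in other lists, and the 3 genes with the closest pattern to the highest and lowest log2 fold change. Spry2 and single markers were named after their values were seen. Positions and exon lengths are from GENCODE M21 on GRCm38, matched by symbol, and similar transcripts had at least 97% identity over at least 50 bases. Results of some listed genes are not reported here.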

Additional observations from a re-analysis of the deposited data

How the results depend on the processing

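The calls of the genes described were tried under DESeq2, no replicate block, RLE size factors, no filter, 2 CPM in at least 3 libraries, robust moderation and each library left out (in a fit without the replicate block, where the lone sample is assumed to vary like the other population). Ntrk3 was called higher in each, and the count of lower genes was 5, or 4 with 2 CPM in 3 libraries, which drops Ngfr (and Artn among the other pathway genes), and 4 to 5 with a library left out, which affected Gfra2. Without the replicate block the mouse term is lost, and the counts were 1 higher and 5 lower, so pairing changed no call among the 9 genes. For the other pathway genes, 6 higher and 26 lower became 3 and 15 in DESeq2, 3 and 17 without the replicate block, and 2 to 4 and 13, 14, 16 or 18 with a library left out. Over all genes, 1837 higher and 1989 lower became 923 and 995 in DESeq2, 1001 and 1119 without the replicate block, and with a library left out (DPPIV- of mouse 1, of mouse 2, DPPIV+ of mouse 1, of mouse 2) 1049, 914, 632 and 712 higher and 1090, 1121, 732 and 841 lower. The sign turned in the unpaired fit for Ret without the DPPIV+ library of mouse 1 (0.070), Gfra4 without the DPPIV- library of mouse 1 (0.056) and Kidins220 without the DPPIV+ library of mouse 2 (-0.039), none of them called, and the cause was not tested. Leaving out a whole mouse leaves 1 library per population and no test. The log2 ratio of the other mouse kept the direction of each of the 6 called genes. At this depth Bdnf, Gdnf and the DPPIV+ level of Ngfr are limited by counting.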

Other observations

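Of 6 listed genes of neurotrophic factors outside the neurotrophin and GDNF families, or of their receptors, 5 were tested. Of these, 3 were lower in DPPIV+ FAPs in both edgeR and DESeq2, against 17.2% and 8.59% of all genes tested. Mdk, which encodes the heparin-binding growth factor midkine, had 51.9 and 47.7 CPM in DPPIV- FAPs and 9.37 and 10.7 CPM in DPPIV+ FAPs, lower in both mice (log2 fold change -2.31, standard error 0.10, adjusted p = 4.42e-116 in edgeR). Ptn, which encodes its relative pleiotrophin, had 14.7 and 26.8 CPM against 2.94 and 4.44 CPM (log2 fold change -2.48, standard error 0.16). Cntfr, which encodes the receptor subunit that binds ciliary neurotrophic factor, had 61.9 and 54.6 CPM against 13.4 and 20.1 CPM (log2 fold change -1.80, standard error 0.09), while Cntf itself had at most 1 read in a library. Manf, the most counted of the list, had a log2 fold change of 0.048 (adjusted p = 0.655 in edgeR), and Cdnf one of -0.70 (adjusted p = 0.0666 in edgeR).

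Within each library, the CPM of Ntrk3 was 0.00878 and 0.00589 of that of Ntrk2 in DPPIV- FAPs and 0.0576 and 0.0503 in DPPIV+ FAPs. The CPM of Gfra1 was 0.470 and 0.346 of that of Ret in DPPIV- FAPs and 0.300 and 0.199 in DPPIV+ FAPs. These ratios are not per length, so they compare libraries and not the levels of the genes.

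The genes whose log2 CPM, centred over the 4 libraries, lay closest to that of Ntrk3 were Ackr2, Sytl2 and Met, with root mean square differences of 0.05, 0.05 and 0.06. For Ngfr they were Gdf10, Lrrc55 and Ddit4l, with 0.07, 0.09 and 0.13. Ngfr had only 3 and 5 reads in DPPIV+ FAPs. There the prior count of 2 moves its log2 CPM far more than that of Gdf10, so its distances depend on that prior. Gdf10, a secreted protein of the TGF-beta superfamily, had 436 and 397 CPM in DPPIV- FAPs and 47.2 and 61.2 CPM in DPPIV+ FAPs.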
